A study of Mus musculus with 6 samples.

Results

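An enzyme step within cells can switch glucocorticoid hormones between an active and an inert form. The transcripts described here are 8 genes of that step and of the response that follows it, chosen by name from the 43629 genes that the authors' deposited table lists. They are the enzyme genes Hsd11b1, Hsd11b2 and H6pd, the receptor genes Nr3c1 and Nr3c2, and the hormone-induced genes Sgk1, Fkbp5 and Tsc22d3. Each matched 1 gene of the table, and all 8 passed the filter on low values. RNA was sequenced from 3 medulloblastomas (genotype Math1-Cre SmoM2.c/wt) and from 3 control cerebella that carried the SmoM2 allele without Cre (genotype SmoM2.c/wt, titled WT), all from female C57BL/6 mice at postnatal day 35. SmoM2 is an activated Smoothened, so Hedgehog signalling runs without ligand where Cre, driven by Math1, has acted in the granule neuron lineage. Both groups therefore carry the allele, and only the tumors carry Cre. The design text calls the controls littermates. Since no label states that every library comes from its own mouse, the p-values reflect only how far these samples spread, and that spread could be technical.

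The enzyme encoded by Hsd11b1 works in the endoplasmic reticulum mainly as a reductase and turns the inert keto form of the hormone back into active corticosterone, the main glucocorticoid of mice. H6pd encodes the dehydrogenase of the same compartment that makes the NADPH this reaction needs. The enzyme encoded by Hsd11b2 runs the opposite way and inactivates corticosterone. In kidney it shields the mineralocorticoid receptor from glucocorticoids, and in the fetal brain, the early postnatal cerebellum included, it limits the exposure of dividing progenitors to the hormone. Both enzymes can also act on oxysterols, oxidized forms of cholesterol of which some bind Smoothened. The active hormone binds the glucocorticoid receptor, encoded by Nr3c1, or the mineralocorticoid receptor, encoded by Nr3c2, and the bound receptor then switches genes such as Sgk1, Fkbp5 and Tsc22d3 on.

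Receptor dimers bind a palindromic sequence, the glucocorticoid response element, and the promoters of the induced genes were searched for it because these genes moved in opposite directions in the tumors. The RefSeq promoter windows (GRCm38.p6, 250 bases before to 50 after a transcription start) held 13 windows for 6 of the 8 genes. Those of Hsd11b2 and Nr3c1 were not among them. The element, with the arms AGAACA and TGTTCT separated by any 3 bases and searched on both strands, was found in 1 of the 13 windows, at the start of 1 Sgk1 transcript, where it lies 189 to 175 bases before the start. Of all 32851 windows in the table, 3 (0.00913%) held it. A looser form, with the arms GNACA and TGTNC separated by any 3 bases, which covers the same site, was in 0.475% of all windows and in no other window of the 6 genes. A single arm of the element, AGAACA on either strand, is common (19.0% of all windows) and was present in windows of H6pd, Sgk1 and Tsc22d3. The binding sequence of the GLI factors of the Hedgehog pathway, TGGGTGGTC on either strand, was in 0.253% of all windows and in none of the 13. These are matches of letters and not measured binding, and a missing match says only that the letters are not in the window. Hsd11b1, Nr3c2 and Fkbp5 had no match of any kind, and Tsc22d3, which fell like Sgk1, had a single arm but not the element. The 250 bases before the start are shown for the Sgk1 window with the element (chr10:21993640-21993889, plus strand). As an example without a match, those of Fkbp5 (chr17:28486150-28486399, minus strand) are shown too. Each is written 5′ to 3′ on the gene's strand, and capitals mark the element and the single arms.
Sgk1: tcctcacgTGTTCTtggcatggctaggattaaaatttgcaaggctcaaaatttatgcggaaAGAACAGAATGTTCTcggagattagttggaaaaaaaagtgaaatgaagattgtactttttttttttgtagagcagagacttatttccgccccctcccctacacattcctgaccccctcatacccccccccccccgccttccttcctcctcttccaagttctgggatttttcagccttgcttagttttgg
Fkbp5: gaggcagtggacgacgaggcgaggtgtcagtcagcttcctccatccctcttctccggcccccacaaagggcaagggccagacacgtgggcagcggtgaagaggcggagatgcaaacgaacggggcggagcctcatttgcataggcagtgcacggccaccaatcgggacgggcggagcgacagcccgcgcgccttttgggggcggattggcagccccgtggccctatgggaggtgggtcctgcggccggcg

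Values are normalized counts, that is, read counts divided by the authors' size factor of the library, from libraries of 44902217 to 69550200 reads. Genes were called at an adjusted p under 0.05, from limma with the Benjamini-Hochberg method over all 22117 genes tested. By this rule 30.6% of genes were higher and 31.5% lower in tumor (62.1% in either direction), so a call by itself sets no gene apart. As a check of the labels, Smo ran from 965 to 1036 normalized counts in the controls and from 4506 to 5622 in the tumors. Its target Gli1 ran from 420 to 462 and from 3860 to 6624. The marker lists of granule neuron progenitors, mature neurons and oligodendrocytes went the same way as the labels. All 7 markers of granule neuron progenitors were higher in the tumors, and all 8 of mature granule neurons, all 8 of Purkinje cells and all 8 of oligodendrocytes were lower. Of 8 markers of astrocytes and Bergmann glia, 6 were lower, 1 was higher and 1 did not pass. Of 8 markers of pericytes and fibroblasts, 5 were lower and 3 did not pass. The markers of mature granule neurons summed to between 258346 and 295573 normalized counts in the controls and between 20191 and 36698 in the tumors. Among the tumors, library 3 had the highest sums for mature granule neurons, Purkinje cells (83219 against 40073 and 47382), oligodendrocytes (158700 against 82193 and 62134) and endothelial cells (7708 against 4662 and 6295). In bulk tissue, fewer cells of a type and less RNA per cell cannot be told apart.

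Of the 8 genes, 2 were higher in the tumors and 6 were lower. Hsd11b2 and Fkbp5 rose, while Hsd11b1, H6pd, Nr3c1, Nr3c2, Sgk1 and Tsc22d3 fell. In each of the 8 the 3 tumor values and the 3 control values did not overlap, which was also so for 67.7% of all genes tested (33.2% with the tumors higher and 34.5% with the tumors lower). The change was called and at least 2-fold for the 2 that rose, as for 17.5% of all genes, and for Hsd11b1, Sgk1 and Tsc22d3 among those that fell, as for 20.5% of all genes. The transcript of the inactivating enzyme thus rose, and those of the regenerating enzyme, of the supplier of its cofactor and of both receptors fell, while the 3 induced genes did not move together. Protein and enzyme activity were not measured.

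**Figure D1:**
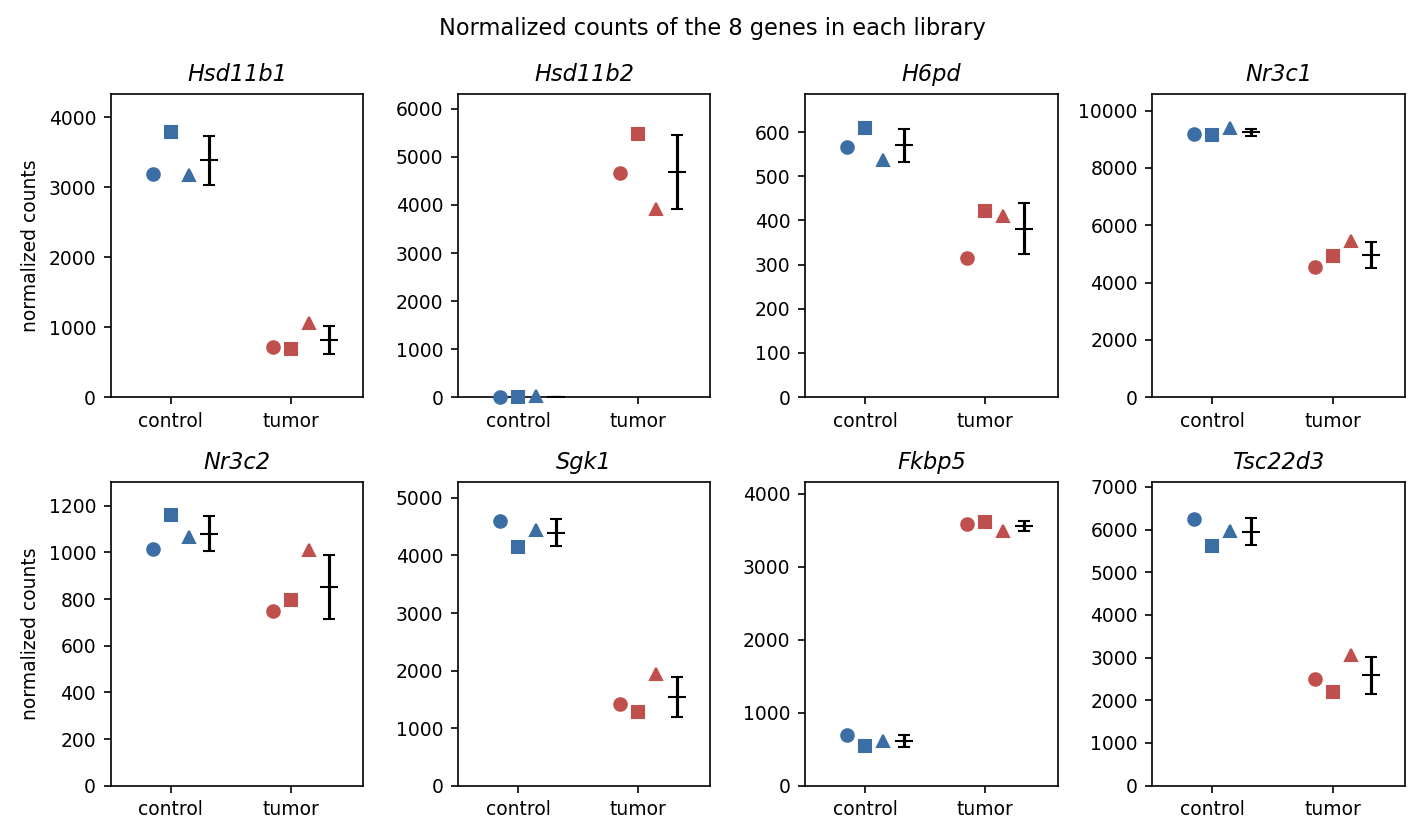
Normalized counts (vertical axes, linear from 0, each gene on its own scale) of the 8 genes in the 3 control libraries (blue) and 3 tumor libraries (red). Circles, squares and triangles are libraries 1, 2 and 3 of a group, and the black marks are the mean ± SD. The tumor points lie above the control points for Hsd11b2 and Fkbp5 and below them for the other 6 genes, with the smallest gap for Nr3c2 (1009 in tumor library 3 against 1015 in control library 1).

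Hsd11b2 (ENSMUSG00000031891, chromosome 8, 105518746 to 105523984, plus strand, mm10) was close to undetected in normal cerebellum. Its normalized counts were 0, 2.38 and 13.9 in control libraries 1, 2 and 3, from 0, 2 and 13 reads, and 4666, 5472 and 3923 in tumor libraries 1, 2 and 3, from 6461, 5791 and 3987 reads. All tumors were high, and among the controls only library 3 was above the 3.21 to 3.57 normalized counts that a floor of 3 reads is worth there. The log2 fold change was 10.30 ± 0.76 SE (limma adjusted p = 1.62e-06), and none of the other 22116 genes tested had a higher one in this fit. Its size, and with it this rank, rests on the few control reads. It was 9.35 without control replicate 1, 11.30 without control replicate 3, 8.34 with a pseudocount of 10 and 11.58 with a pseudocount of 0.1, and the call held in all 18 alternatives. With a pseudocount of 10 it was not the highest, since Nhlh1 had 8.42 or more in each of the 18. Per kilobase of exon, the mean level lay above 12.9% of 21902 tested genes in the controls and above 96.0% in the tumors.

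Hsd11b1 (ENSMUSG00000016194, chromosome 1, 193221634 to 193264075, minus strand) moved the other way. Its normalized counts were 3184, 3786 and 3178 in the controls and 718, 692 and 1054 in the tumors. Tumor library 3 was the highest of the tumors and still below every control. The mean fell from 3382 ± 349 to 821 ± 202 (SD, n = 3), a log2 fold change of -2.06 ± 0.16 SE with a 95% interval from -2.42 to -1.71 (limma adjusted p = 2.16e-06), and 2099 of the 22117 genes had a lower one. H6pd (ENSMUSG00000028980, chromosome 4, 149979475 to 150009023, minus strand), the NADPH supplier of the Hsd11b1 enzyme, fell less. It had 565, 609.9 and 536 normalized counts in the controls and 314, 421 and 410.3 in the tumors, with tumor library 1 the lowest. Its log2 fold change was -0.59 ± 0.15 SE (limma adjusted p = 0.00642). Per kilobase of exon, Hsd11b1 stood 6.94 to 7.64 times above H6pd in the controls and 2.03 to 3.16 times above it in the tumors.

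Within each library the ratio of Hsd11b2 to Hsd11b1 does not depend on the size factor, apart from the pseudocount. On the log2 scale with a pseudocount of 1 it was -11.64, -10.13 and -7.74 in control libraries 1, 2 and 3 and 2.70, 2.98 and 1.90 in tumor libraries 1, 2 and 3. The sign of the ratio thus differed between the groups in every library. The mean difference was 12.36, with p = 0.1 by an exact two-sided permutation test, the smallest p that 3 against 3 libraries allow. Both genes were without overlap between the groups and moved in opposite directions, so their ratio had to reach this p. The test adds nothing to the results of the single genes. Corrected for exon length, the transcript of the inactivating enzyme was 15.0, 18.3 and 8.60 times as abundant as that of the activating enzyme in the tumors. In control libraries 2 and 3 the activating enzyme's transcript was 689 and 99.0 times as abundant as that of the inactivating enzyme, from 2 and 13 reads of Hsd11b2, and control library 1 had no Hsd11b2 read.

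**Figure D2:**
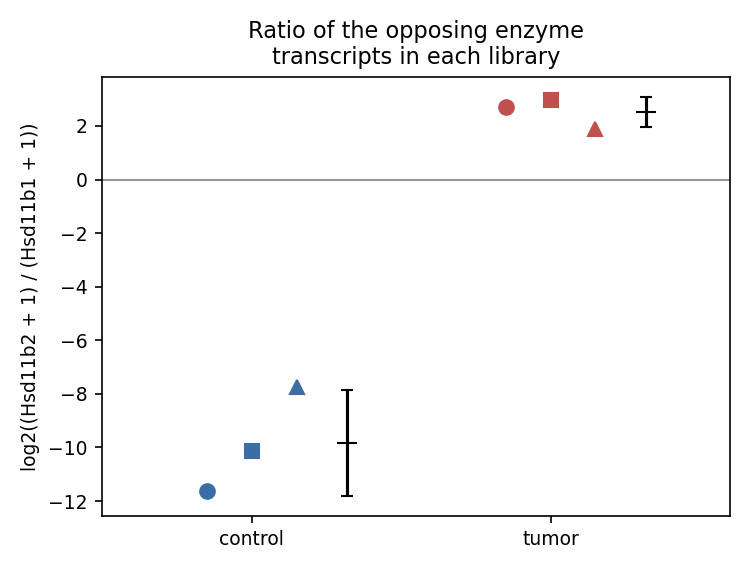
Log2 ratio of Hsd11b2 to Hsd11b1 (vertical axis, normalized counts plus a pseudocount of 1) in the 3 control libraries (blue) and 3 tumor libraries (red), with circles, squares and triangles for libraries 1, 2 and 3 and black marks for the mean ± SD. The controls lie between -11.64 and -7.74 and the tumors between 1.90 and 2.98.

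The 3 named genes nearest to Hsd11b2 in profile, by Euclidean distance between centred log2(value + 1) values over the 6 libraries and among 14823 candidate genes, were Atoh1 (distance 1.26), Myod1 (2.19) and Nhlh1 (2.43). Atoh1 and Nhlh1 encode transcription factors of granule neuron progenitors, and Myod1 encodes a muscle transcription factor. Within the controls these genes stood in the order of Hsd11b2, lowest in library 1 and highest in library 3. They were picked by nearness over the same libraries, so this shared order follows in part from the choice. Atoh1 had 1.12, 4.76 and 11.8 normalized counts there, against 0, 2.38 and 13.9 for Hsd11b2. The progenitor markers together summed to 1227, 1266 and 1434 in control libraries 1, 2 and 3, and their part in the Hsd11b2 values was not tested. Of these markers, Atoh1, Nhlh1 and Mycn rose from library 1 to library 3. Mki67 and Gli1 were lowest in library 2, and Gli2 and Barhl1 were highest there. Mycn, Mki67 and Barhl1 were named after their values were seen. For Hsd11b1 the nearest were Lrrc4c (distance 0.157), the gene of a synaptic adhesion protein, Ptpn3 (0.176), a tyrosine phosphatase gene, and Lsamp (0.187), the gene of a neuronal adhesion protein.

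The glucocorticoid receptor gene Nr3c1 (ENSMUSG00000024431, chromosome 18, 39410545 to 39491301, minus strand) fell in every tumor. It had 9179, 9162 and 9388 normalized counts in the controls and 4545, 4911 and 5451 in the tumors. The controls were within 1.02 times of each other and the tumors within 1.20 times. The log2 fold change was -0.90 ± 0.09 SE (limma adjusted p = 9.61e-06). The mineralocorticoid receptor gene Nr3c2 (ENSMUSG00000031618, chromosome 8, 76899442 to 77245012, plus strand) differed least of the 8. Its normalized counts were 1015, 1162 and 1065 in the controls and 751, 797 and 1009 in the tumors, so that tumor library 3 all but reached the lowest control. The log2 fold change was -0.35 ± 0.13 SE (limma adjusted p = 0.0384). This call was lost in 7 of 18 alternatives. They were those without control replicate 1, 2 or 3 and without tumor replicate 1 or 2 (limma adjusted p from 0.0624 to 0.140), library totals (0.103) and limma without a mean-variance trend (0.0883). An antisense gene, Gm10649, shares 247 bases (3.82%) of the Nr3c2 exons in GENCODE M21. It had 99.4 to 144 normalized counts in the controls and 6.61 to 22.6 in the tumors, and without strand information reads in the shared bases cannot be assigned. No other exon overlap was found for the 8 genes. Per kilobase of exon, Nr3c1 stood 6.65 to 7.62 times above Nr3c2 in the controls and 4.55 to 5.19 times above it in the tumors.

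Fkbp5 (ENSMUSG00000024222, chromosome 17, 28399095 to 28517524, minus strand) encodes a cochaperone that binds the receptor with HSP90 and lowers its affinity for the hormone, and is itself induced by the hormone. It was the only induced gene of the 3 that rose. Its normalized counts were 701, 537 and 612 in the controls and 3588, 3612 and 3484 in the tumors. The tumors were within 1.04 times of each other, the narrowest spread of the 8 genes in the tumors. The log2 fold change was 2.54 ± 0.11 SE (limma adjusted p = 5.45e-08), a 5.80-fold rise, and 1072 of the 22117 genes had a higher one.

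Sgk1 (ENSMUSG00000019970, chromosome 10, 21882184 to 21999903, plus strand) encodes a kinase that stimulates sodium channels and other transporters. It had 4598, 4152 and 4446 normalized counts in the controls and 1424, 1274 and 1937 in the tumors. Its log2 fold change was -1.53 ± 0.14 SE (limma adjusted p = 8.12e-06). Tsc22d3 (ENSMUSG00000031431, chromosome X, 140539528 to 140600659, minus strand) encodes GILZ, a leucine zipper protein that carries part of the anti-inflammatory action of glucocorticoids. It had 6251, 5620 and 5966 normalized counts in the controls and 2508, 2193 and 3055 in the tumors, a log2 fold change of -1.21 ± 0.12 SE (limma adjusted p = 1.18e-05). In both genes tumor library 3 was the highest tumor and tumor library 2 the lowest.

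**Figure D3:**
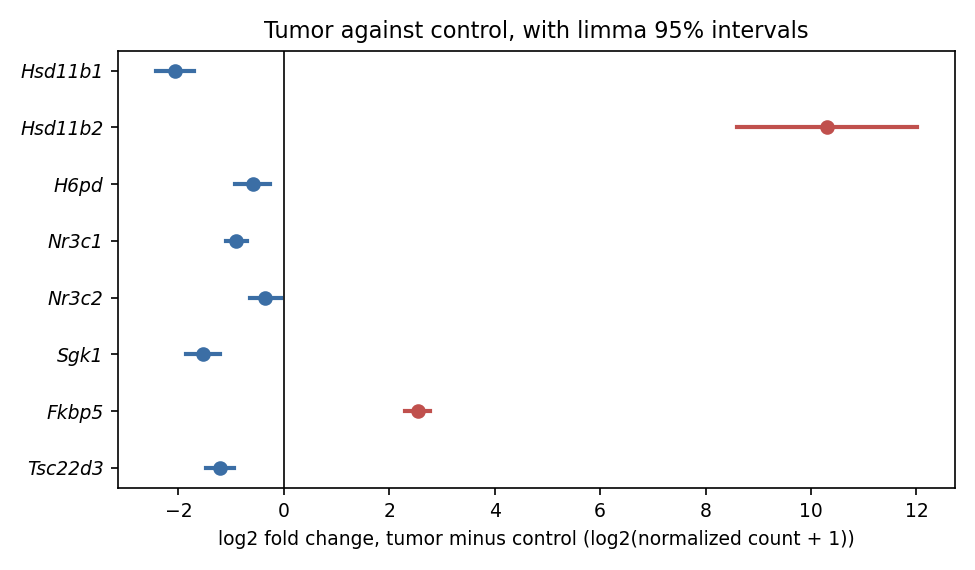
Log2 fold change of each of the 8 genes (horizontal axis, tumor minus control on the log2(normalized count + 1) scale) with limma's 95% interval as a line, red where higher and blue where lower in tumor. Hsd11b2 has the widest interval, from 8.59 to 12.01, and the interval of Nr3c2, from -0.64 to -0.06, comes closest to 0.

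Tumor library 3 thus lay at an end of the tumor range in most of the genes, though by little in Fkbp5 (3484 against 3588 and 3612). It had the highest tumor value of Hsd11b1, Nr3c1, Nr3c2, Sgk1 and Tsc22d3 and the lowest tumor value of Hsd11b2 and Fkbp5, and also the highest marker sums for mature neurons, oligodendrocytes and endothelial cells given above. Its choroid plexus markers summed to the lowest value, 2561 normalized counts against 24009 and 19744 in tumor libraries 1 and 2 and 73181 to 127926 in the controls, and 7 of the 8 were lower in tumor. The part of these cell types in the 8 genes was not tested. Without tumor replicate 3, the same numbers of genes, 2 higher and 6 lower, were called by limma.

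The order of the 8 genes by level, per kilobase of exon and as the mean ± SD of n = 3 libraries, differed between the groups. In the controls it ran from Tsc22d3 (1370 ± 72.8 normalized counts per kilobase) and Nr3c1 (1203 ± 16.4) through Sgk1 (897 ± 46.3), Hsd11b1 (796 ± 82.1), Nr3c2 (167 ± 11.5), H6pd (109 ± 7.14) and Fkbp5 (65.1 ± 8.67) to Hsd11b2 (2.95 ± 4.04). Of these neighbours, Sgk1 and Hsd11b1 overlapped and the others did not. In the tumors Hsd11b2 came first (2547 ± 421), then Nr3c1 (647 ± 59.3), Tsc22d3 (596 ± 100.4), Fkbp5 (376 ± 7.18), Sgk1 (315 ± 70.9), Hsd11b1 (193 ± 47.5), Nr3c2 (132 ± 21.3) and H6pd (72.9 ± 11.2). There Nr3c1 overlapped with Tsc22d3, and Fkbp5 with Sgk1. The least abundant of the 8 transcripts in normal cerebellum was thus the most abundant in the tumors.

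Of the other genes that glucocorticoids are known to induce, more fell than rose. Of 29 tested, 16 fell (55.2%, against 31.5% of all genes), 5 rose (17.2%, against 30.6%) and 8 did not pass, with a median log2 fold change of -0.35 against -0.02 over all genes tested. The number that fell was 9 without control replicate 1. Tat, which fell and was named after its values were seen, passed the filter on low values only through the controls. It had 9 reads there and 2 over the tumors. The strongest falls were those of Hif3a, a hypoxia factor gene, with a log2 fold change of -3.38 (limma adjusted p = 0.000532), and Bcl6, a transcriptional repressor gene, from 3276 ± 231 to 599 ± 59.0 normalized counts. The largest rises were those of Lcn2, which encodes the iron-binding acute-phase protein lipocalin 2, and Txnip, which encodes an inhibitor of thioredoxin. Lcn2 had 23.5 to 42.4 normalized counts in the controls and 451 to 1688 in the tumors, and Txnip had 1807 to 1912 and 8226 to 11820. The other 3 genes that rose were Ddit4, the gene of an mTOR inhibitor (0.65 on the log2 scale), Nfkbia, the gene of an NF-kappaB inhibitor (0.45), and Angptl4, the gene of a lipoprotein lipase inhibitor (from a mean of 129 to 256 normalized counts). Among those that fell were 4 more that were, like these 3, named after their values were seen. The clock gene Per1 changed by -1.18 on the log2 scale, the transcription factor genes Klf9 and Klf15 by -0.96 and -1.26, and Errfi1, which encodes an inhibitor of the EGF receptor, by -1.65. Dusp1, a MAP kinase phosphatase gene, had 1112 ± 367 and 941 ± 48.4 normalized counts and did not pass. Several of these genes also serve in other cell types and answer to other signals. Over the same libraries, 7 of 8 microglia and macrophage markers were higher (summed level 4935 to 6038 in the controls, 16705 to 18094 in the tumors) and 7 of 8 endothelial markers were lower (12530 to 15218 and 4662 to 7708). Their part in this list was not tested.

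Among the genes of the receptor's chaperones, which hold it ready for the hormone, more rose than fell. Of 16 tested, 8 rose (50%, against 30.6% of all genes), 1 fell (6.25%, against 31.5%) and 7 did not pass, with a median log2 fold change of 0.26. The number that rose ran from 6 to 11 over the alternatives. Hsp90ab1, which encodes the constitutive HSP90, rose from 75602 ± 3237 to 167646 ± 10472 normalized counts (log2 fold change 1.15, limma adjusted p = 6.68e-06), and Ptges3, which encodes the cochaperone p23, rose by 0.65 on the log2 scale. Dnaja1, the gene of an HSP70 cochaperone, rose least (0.28, limma adjusted p = 0.0398) and lost its call in 7 of 18 alternatives. The phosphatase gene Ppp5c was the gene that fell (-0.44). Fkbp4, the gene of a cochaperone that competes with the Fkbp5 protein for the receptor, was named after its values were seen. It had 9143 to 9569 normalized counts in the controls and 12383 to 14861 in the tumors, a log2 fold change of 0.58 (limma adjusted p = 0.000302), beside 2.54 for Fkbp5.

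Among 15 paralogs of Fkbp5 and Tsc22d3, 3 rose (20.0%), 5 fell (33.3%, near the 31.5% of all genes) and 7 did not pass, and their log2 fold changes were small. They reached 0.84 for Fkbp3 and 0.73 for Fkbp7 and went down to -0.64 for Tsc22d4 and -0.61 for Fkbp1b. Of 17 nuclear receptor coregulators, 10 rose (58.8%, against 30.6% of all genes), 3 fell (17.6%) and 4 did not pass (median 0.45), and 5 fell with upper-quartile scaling. The deacetylase gene Hdac2 rose by 1.65 on the log2 scale, while Ppargc1a, a coactivator gene of mitochondrial biogenesis (-2.14), and Nrip1 (-0.72) fell most.

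Of 11 genes for glucose-6-phosphate handling and NADPH supply, listed without regard to compartment, 7 rose (63.6%, against 30.6% of all genes). Another 2 fell (18.2%, against 31.5%) and 2 did not pass, with a median log2 fold change of 0.36. The number that rose ran from 5 to 9 over the alternatives. The pentose phosphate genes Pgls (1.41) and Rpia (1.08) rose most. The falls were those of Me1, the gene of the cytosolic malic enzyme (-1.15), and G6pc3, a glucose-6-phosphatase gene of the endoplasmic reticulum (-0.69). Slc37a4, the gene of the transporter that brings glucose-6-phosphate to the H6pd enzyme, had 819 ± 53.1 and 934 ± 33.6 normalized counts and did not pass (limma adjusted p = 0.133). It was named after its values were seen.

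Of 19 genes for the synthesis, transport and breakdown of corticosteroids, 10 passed the filter on low values, of which 4 rose, 4 fell (40.0% each, against 30.6% and 31.5% of all genes) and 2 did not pass. The number that fell was 2 without control replicate 1 or without tumor replicate 2. Cyp11a1, which encodes the enzyme that starts steroid synthesis from cholesterol, rose from 69.5 ± 14.3 to 635 ± 262 normalized counts (log2 fold change 3.10, limma adjusted p = 1.46e-05). The steroid reductase gene Akr1d1 was without a read in all controls and had 33 reads over the tumors, through which alone it passed the filter. Set against the mean floor of 3 counts per control library, it was at least 2.89-fold higher. Abcb1a, which encodes a drug and steroid exporter of the blood-brain barrier, fell from 1813 ± 133 to 596 ± 287. Its paralog Abcb1b, named after its values were seen, rose from 69.6 ± 11.5 to 206 ± 35.1 (log2 fold change 1.55, limma adjusted p = 0.000258). Cyp17a1, a steroid hydroxylase gene, fell from 16 reads to 2 over all libraries of a group and passed the filter only through the controls. The adrenal genes of the last steps of corticosterone and aldosterone synthesis, Cyp21a1, Cyp11b1 and Cyp11b2, did not pass the filter and had at most 9 reads in a group. Of 13 other hydroxysteroid dehydrogenase genes tested, 3 rose (23.1%), 5 fell (38.5%) and 5 did not pass, shares near those of all genes (30.6% and 31.5%). The log2 fold changes of the called genes ran from 0.77 for Hsd17b10 and 0.65 for Hsd17b11 down to -1.50 for Hsd3b7 and -2.62 for Hsd17b14. None of these was near the 10.30 of Hsd11b2. The value of Hsd17b14 rests on 42 reads over the controls and 5 over the tumors. It passed the filter on low values only through the controls.

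Downstream of Nr3c2 and Sgk1, sodium transport genes that aldosterone regulates in kidney were lower. Of 12 tested, 8 fell (66.7%, against 31.5% of all genes) and 4 did not pass, with a median log2 fold change of -1.86, or -1.68 with Fxyd4, which has no read in the tumors, at its bound. The number that fell ran from 6 to 9 over the alternatives. Fxyd4 and Slc12a3, the latter named after its values were seen, passed the filter on low values only through the controls. They are among the 8 that fell and had 8 and 15 reads in the controls and 0 and 1 over the tumors. Scnn1g, which encodes a subunit of the epithelial sodium channel, fell from 222 ± 11.7 to 11.1 ± 5.53 normalized counts, and Slc9a3, a sodium-proton exchanger gene, fell by 3.31 on the log2 scale. The kinase gene Wnk4 had a log2 fold change of -1.83. Scnn1a, another channel subunit gene, had 63.2 ± 21.7 and 104 ± 25.8 normalized counts and did not pass. It was called higher without control replicate 1 or without tumor replicate 3. Of 12 SGK kinases, activators and substrates, 9 fell (75.0%, against 31.5% of all genes), 1 rose and 2 did not pass (median -0.89). Sgk2, a paralog of Sgk1, fell from 191 ± 34.4 to 15.5 ± 4.45 normalized counts, and Ndrg1, a substrate gene, from 7656 ± 297 to 1207 ± 327. Mapkap1, a gene of the mTORC2 complex that activates the kinase, was the gene that rose (0.64), and Pdpk1, the gene of the other activating kinase, fell least (-0.63). Many genes of these lists are also expressed in neurons, oligodendrocytes or choroid plexus, an epithelium that transports sodium, whose markers were lower as given above, and the part of those cells was not tested.

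**Figure D4:**
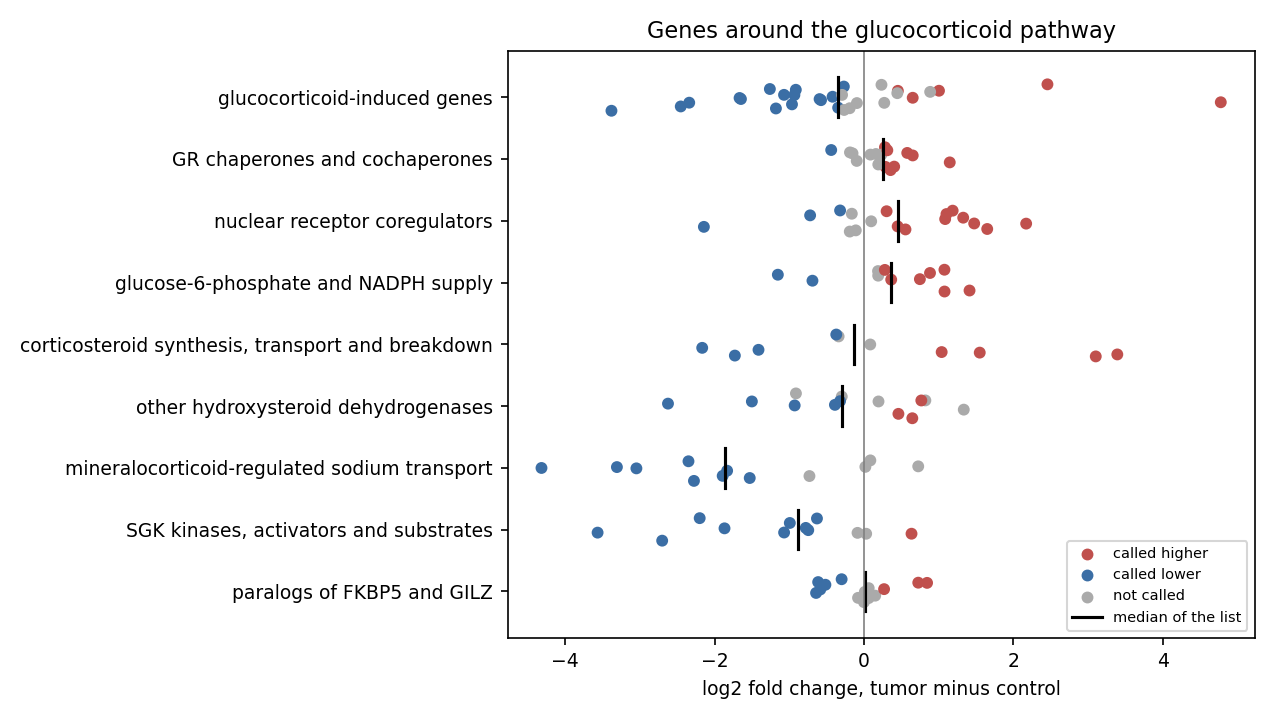
Log2 fold changes (horizontal axis, tumor minus control) of the tested genes of 9 lists around the glucocorticoid pathway, with points red where called higher, blue where called lower and grey where not called, and a black line at the median of each list. The list medians run from -1.86 for sodium transport to 0.45 for coregulators, and no point reaches the 10.30 of Hsd11b2.

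The ratio of tumor to control means in the authors' deposited table was 864 for Hsd11b2, 5.77 for Fkbp5 and 0.243 for Hsd11b1. The FDR in that authors' deposited table was under 0.05 for all 8 genes, the highest being 0.0332 for Nr3c2. A shorter list, also in the authors' deposited files, whose 2654 genes all have an FDR of 0.0499 or less, holds 3 of the 8 genes. The FDR values of the shorter list, which differ from those of the authors' deposited table, were 0.0156 for Hsd11b2, 0.0244 for Fkbp5 and 0.0380 for Hsd11b1.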

How the data were processed

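Total RNA was extracted with TRIzol and a column cleanup and made into TruSeq libraries, per the labels' protocols. Tools listed without roles, per the submitters' processing notes, are Bowtie2 2.2.4, featureCounts, edgeR and FastQC, with build mm10. Annotation release, counting options and strand use: not given in the sources used here. The authors' deposited table gives 1 signal per gene and library, found from the values to be a read count divided by a size factor: 100% were whole multiples of 1 step per library, to within 1e-06 of a read. The authors' deposited fold ratios, p-values and FDR columns entered no test.

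Reads recovered from these values summed to 44902217 to 69550200 per library, and size factors ran from 0.841 to 1.38. Values were tested as log2(value + 1) with limma 3.58.1 (R 4.3.3, trended variance). The 22117 genes tested exceeded a value of 1 in 3 or more libraries. Fold changes on this scale depend on the pseudocount for low genes and can exceed the ratio of means where a group's values spread widely, as for Hsd11b2 (1258 against 864). Calls needed an adjusted p under 0.05. edgeR 4.0.16 and DESeq2 1.42.0 on the recovered reads were alternatives. By edgeR's quasi-likelihood test with TMM, 6800 genes were higher in tumor and 6611 lower. Gene lengths are exon unions of GENCODE M21 (GRCm38), not the authors' annotation. A floor of 3 counts covers counting error only. The script was tested on simulated data.

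The 8 genes and all lists were chosen with earlier results of these data known. Named genes were the 8, Smo and Gli1, the 3 nearest profiles of Hsd11b1 and Hsd11b2, and up to 4 members per list (the 2 largest and 2 smallest log2 fold changes among called genes, otherwise the smallest p); exceptions are marked, and 2 items that the rule names are not reported here. Lists are described by counts and medians, with no set test.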

Additional observations from a re-analysis of the deposited data

How the results depend on the processing

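Over 18 alternatives, the call and direction of Hsd11b1, Hsd11b2, H6pd, Nr3c1, Sgk1, Fkbp5 and Tsc22d3 were kept in all, with log2 fold changes from -2.26 to -1.95, 8.34 to 11.58, -0.67 to -0.45, -0.98 to -0.80, -1.71 to -1.40, 2.44 to 2.63 and -1.34 to -1.10. Nr3c2 ran from -0.48 to -0.25 and lost its call in 7. Leaving out 1 library at a time left 2 of the 8 genes higher and 5 to 6 lower, with 6110 to 6700 genes higher and 6109 to 6969 lower over the whole table. The log2 ratio of Hsd11b2 to Hsd11b1 differed by 10.39 with a pseudocount of 10, by 13.65 with a pseudocount of 0.1 and by 11.46 to 13.41 with 1 library left out, where the exact permutation p cannot go below 0.2.

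Same-numbered control and tumor libraries did not deviate together (correlations of 0.0221, -0.0512 and -0.00730 across genes), so the numbers were not taken to pair samples. With the replicate number as a block, 6744 genes were higher and 6943 lower, and 2 of the 8 genes were higher and 6 lower. The low Hsd11b2 counts of the controls limit its fold to an order of size.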
